A study of Oncorhynchus mykiss with 23 samples.

Results

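Fast muscle of trout refed for 4 days after a fast (RF4) was compared with fast muscle of trout that were still fasted (F0), on 10 of the 23 arrays of the study. The comparison rests on the 5 F0 arrays and the 5 RF4 arrays, 1 array per fish, and on the 33283 of 60195 array probes whose signal stood well above background in at least 4 fish of either group. All fish were rainbow trout of a spring strain, 1 year old, kept together in 1 experimental tank. F0 trout were deprived of food for 30 days, and RF4 trout had the same fast of 30 days followed by 4 days of feeding far above their satiation ration. The Methods and the sample labels give this length of the fast, while the Results text of the study gives another. RNA came from a transverse slice of fast muscle under the dorsal fin. Trout refed for 11 days (RF11, 5 arrays) or 36 days (RF36, 4 arrays) and control-fed trout from a tank of their own (C0, 4 arrays) entered the model only through the shared estimate of the spread, and their levels are given as context. The p-values measure the spread between fish within the feeding groups, pooled over all groups and so over both tanks. Because F0 and RF4 fish came from 1 tank, the spread between tanks of the same feeding is not measured. Sampling day and refeeding cannot be told apart.

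A muscle that receives no food breaks down its own protein. Ubiquitin ligases tag myofibrillar proteins for the proteasome, and autophagy carries organelles and protein aggregates to the lysosome, so that amino acids are released, while fat takes the place of glucose as fuel. When food returns, insulin, growth factors and amino acids signal through the kinase mTOR, which promotes protein synthesis and restrains autophagy. Fish muscle can also resume the division of its precursor cells and of its connective tissue cells.

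Levels are log2 values of the spot signal set against the 75th percentile of their array, so that a difference of 1 is a 2-fold change. A level tells how bright a probe was on an array and is compared between fish for the same probe only. Differences are RF4 minus F0 from limma with the standard error (SE), and a probe was called higher or lower at a Benjamini-Hochberg adjusted p under 0.05 over all 33283 probes. Where all 5 values of a group are listed, they follow the order of fish 2, 3, 4, 5 and 7. Where none of the arrays of 1 group measured a probe well above background, only a bound ("at least N-fold") is given, computed against the lowest signals that were well above background on those arrays or the probe's own signal where that was higher. These bounds hold for the processed signal only. With another background correction (normexp), the folds of most such genes were smaller than their bound.

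Of the 33283 probes tested, 7968 differed between RF4 and F0 (23.9%), 4645 of them higher (14.0%) and 3323 lower (9.98%) after 4 days of refeeding. The median difference over all tested probes was -0.07, and the middle 90% of the probes lay between -0.98 and 1.31, against a median SE of 0.24. Differences of at least 1 log2 unit were found for 2523 higher and 1404 lower probes, and differences of at least 3 log2 units for 120 higher and 48 lower probes. The 5 RF4 values did not overlap the 5 F0 values for 6378 probes (19.2% of those tested, 11.5% with RF4 higher and 7.62% with RF4 lower), and for 5637 of the 7968 called probes. The split into higher and lower depended on the scaling point: 58.3% of the calls were higher with the 75th percentile, 69.9% of 6030 calls with each array scaled to its median and 69.6% of 6071 calls with the authors' own normalised values.

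**Figure D1:**
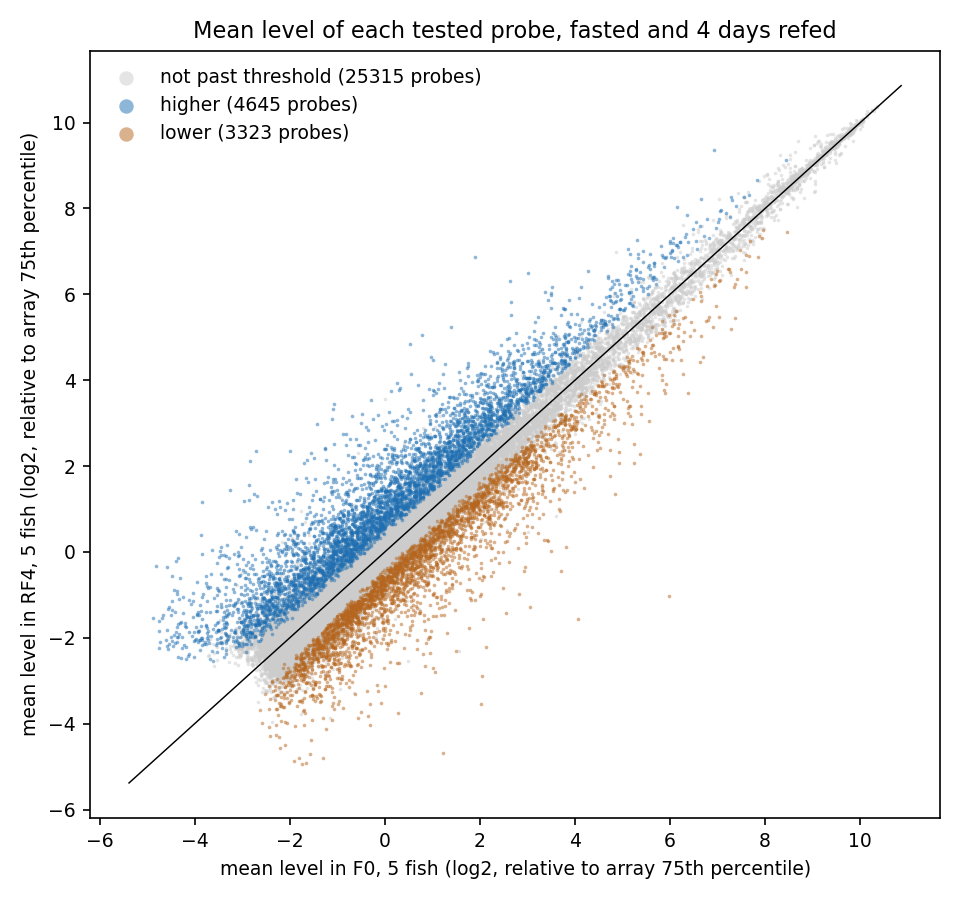
Mean level of each of the 33283 tested probes in the 5 fasted trout (F0, x axis) and the 5 trout refed for 4 days (RF4, y axis), both in log2 units against the array's 75th percentile, with the line of equal levels. Blue points are the 4645 probes called higher, brown points the 3323 called lower, and grey points the others; calls in both directions occur over most of the range, and few probes lie above a level of 8 and away from the line.

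Arrays of both groups were of similar quality. The share of spots well above background had a median of 59.0% in F0 and 56.1% in RF4, and reached no more than 60.8% and 58.8%. The first principal component of the tested probes held 45.8% of the variance of the 10 arrays and placed the F0 arrays between -82.35 and -50.47 and the RF4 arrays between 55.79 and 84.58. Each of the 3 slides held arrays of both groups. The only F0 fish on the first slide was F0-2, and the only RF4 fish on the second was RF4-3. Differences within these slides rest on that fish alone for its group. Within the slides, 7829 of the 7968 called probes (98.3%) had a difference of 1 sign on all 3 slides, against 55.8% of all tested probes. The calls were made on these same arrays, which selects for such agreement, so this share is no separate support for them. In a bulk slice, fewer cells of a type and less RNA per cell cannot be told apart, and this holds for every gene below.

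Most of these changes have no gene name. A symbol was available for 911 tested probes of 665 genes, and for 697 of the 7968 called probes (8.7%). Names of 882 tested probes came from the study's heat map, which lists probes that its own test across the feeding groups picked on these same arrays, in the order of a clustering by expression. The copy of it read here held 1252 of 3924 rows, from the top. Of the 1196 tested probes in these rows, the first 598 all had a lower mean in RF4 than in F0, and 364 of the last 598 had a higher one. Which genes carry a name therefore depends on how they changed: 78.3% of the 882 heat map probes were called, 21.7% higher and 56.7% lower, against 14.0% higher and 9.98% lower over all probes. Counts and directions of the named groups below describe which named probes changed and by how much. They are not independent evidence that a group as a whole rose or fell. A gene well above background on fewer than 4 arrays of 1 group was tested only because the other group was bright, which favours a difference. Of the probes well above background on all RF4 and no F0 arrays, 83 of 87 were called, and 59 of 69 in the reverse case. Testing through 1 group holds for 10 of the 18 higher genes of cell division and 5 of the 19 lower ubiquitin ligase genes. It also holds for 3 of the 25 lower autophagy genes, 3 of the 10 lower fuel genes and some members of other groups described below. The size of such differences also depends on the background correction: with normexp correction, the folds of 32 of the 125 called genes that the rule or the array named were smaller by over 1.5 times, and 25 of the 32 had fewer than 4 arrays well above background in 1 group. The names are those of the best protein or transcript match, often in another species, and a probe may also bind the transcripts of the related gene copies that are common in trout.

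A small set of probes escapes this selection, since the array itself names them: 29 tested probes, of which 6 were called (20.7%), all of them lower in RF4, close to the share of all probes (23.9%). Most are genes of protein breakdown, of muscle differentiation and of the defence against oxygen radicals. MAP1LC3B (LC3B), the protein that coats the autophagosome membrane, had levels of 3.49, 4.37, 4.22, 2.91 and 4.72 in F0 and of 2.16, 2.26, 2.19, 2.52 and 1.99 in RF4. Every RF4 trout lay below every F0 trout, with a difference of -1.72 (SE 0.30, limma adjusted p = 1.3e-04). A probe named only as cathepsin, a lysosomal protease whose type is not given, fell by 1.18 (adjusted p = 0.00183), with the lowest F0 trout at 6.30 inside the RF4 range of 5.71 to 6.44. ATG12, which is conjugated to another autophagy protein to build the autophagosome, fell by 0.77 (adjusted p = 0.00557), and PSMA1, a subunit of the proteasome core, by 0.78 (adjusted p = 0.00629), and each lost its call under 2 of 22 alternatives. PPARA, the nuclear receptor that turns on fatty acid oxidation, fell by 0.47 (adjusted p = 0.0356), a call that was lost under 12 of 22 alternatives. The array's own probe of FBXO32, a ubiquitin ligase described below, fell by 5.57.

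The remaining array-named probes were not called. The calcium-activated proteases CAPN1 and CAPN2 differed by 0.60 (SE 0.29, adjusted p = 0.137) and 0.19 (SE 0.18, adjusted p = 0.507), and their inhibitor calpastatin (CAST) by -0.82 (SE 0.33, adjusted p = 0.0739). Among the transcription factors that direct muscle differentiation, MYOD1 had levels of 4.17, 3.47, 4.56, 4.10 and 4.85 in F0 and of 3.57, 3.21, 3.62, 4.10 and 3.65 in RF4, with overlapping groups and a difference of -0.60 (SE 0.22, adjusted p = 0.0531). MYF5, MYOG (myogenin) and MYF6 (MRF4) differed by 0.13 (SE 0.19), -0.11 (SE 0.15) and -0.35 (SE 0.22), and their adjusted p ran from 0.264 for MYF6 to 0.671 for MYF5. The fast fibre proteins, which are among the brightest probes, stayed within 1 log2 unit as well: fast myosin at -0.02 (SE 0.24), fast myosin light chain 1 at 0.06 (SE 0.25) and light chain 3 at 0.31 (SE 0.24). Superoxide dismutases SOD1 and SOD2, catalase (CAT) and glutathione peroxidase GPX1 differed by 0.22, 0.02, 0.19 and 0.55, with adjusted p of 0.519, 0.972, 0.711 and 0.0547. A p that misses the threshold does not show that the levels were equal.

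**Figure D2:**
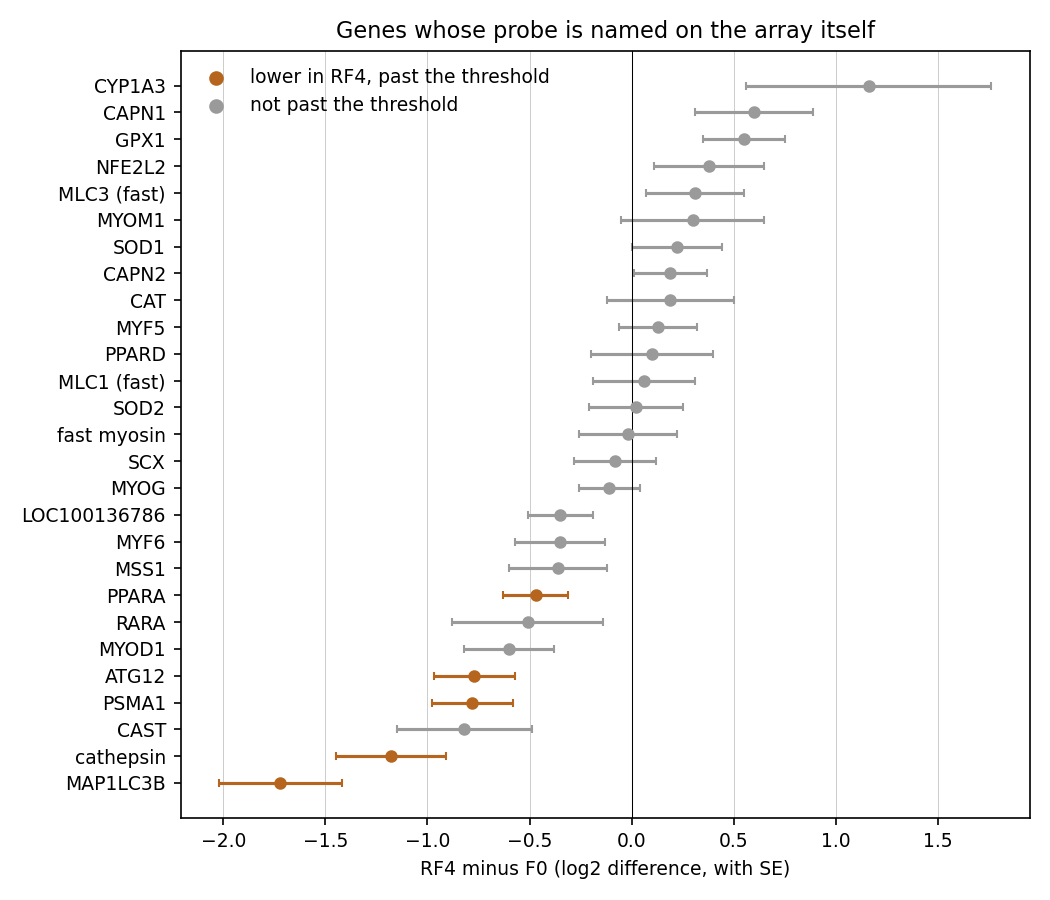
Difference RF4 minus F0 (x axis, log2, point with its SE as a bar) of the 27 genes whose probe carries a gene name on the array itself and is the gene's brightest probe (y axis); array-named probes of genes with a brighter probe, such as FBXO32, are left out. Brown points were called lower in RF4, grey points were not called, and no gene of this set was called higher; MAP1LC3B had the largest fall, 1.72.

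Ubiquitin ligases and their partners were lower after 4 days of refeeding in 19 of 20 tested members, none was higher, and the median difference was -1.35, against -0.07 over all probes. Lower calls made up 9.98% of all tested probes and 56.7% of heat map probes. Of the 19, 5 were tested through F0 alone. FBXO32 (atrogin-1) and TRIM63 (MuRF1) are the ligases whose transcripts mark muscle wasting in mammals. FBXO32 had levels of 0.14, 3.86, 1.66, 1.02 and 3.54 in F0 and of -2.90, -3.43, -2.25, -3.35 and -2.56 in RF4. The F0 fish spread widely, over more than 3 log2 units, but the lowest of them lay above the highest RF4 fish. FBXO32 fell by 4.94 (SE 0.63, limma adjusted p = 3.2e-06), and only 2 of 5 RF4 arrays measured it well above background (-3.32 with normexp correction). The size of this fall differed between slides, at -2.87, -7.13 and -4.14. F0-2 was the only F0 fish on the first slide and RF4-3 the only RF4 fish on the second. TRIM63 had levels of -0.46, 0.17, 0.22, -0.08 and -0.05 in F0 and of -1.90, -1.89, -1.54, -1.73 and -1.22 in RF4. Here both groups were tight and the fall was smaller, 1.61 (SE 0.19, adjusted p = 9.8e-07). ZNRF2, a membrane-bound ligase, fell by 2.89 (2 of 5 RF4 arrays well above background), ARIH2 by 2.41 and RNF122 by 2.30, without overlap of the groups. FBXO30, known from mouse muscle atrophy as MUSA1, was well above background on all 5 F0 arrays and on 0 RF4 arrays, which made it at least 1.97-fold lower (adjusted p = 1.1e-06). The member that was not called was UBE2K (-0.43, adjusted p = 0.0697).

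Genes of autophagy and the lysosome were lower in 25 of 27 tested members and higher in none, with a median difference of -1.42. Over all probes 9.98% were lower, and over heat map probes 56.7%. Of the 25, 3 were tested through F0 alone. ATG4B, the protease that trims LC3 before it is attached to the membrane, had levels of 3.31, 4.11, 3.65, 2.64 and 3.79 in F0 and of 0.67, -0.46, -0.56, 0.26 and 0.20 in RF4. The groups lay about 2 log2 units apart at their nearest fish, and the difference of -3.48 (SE 0.26, limma adjusted p = 3.0e-09) is an 11.1-fold fall. CALCOCO1, an autophagy receptor, had levels between 2.88 and 3.96 in F0 and between -0.11 and 0.62 in RF4 and fell by 3.14 (SE 0.26, adjusted p = 8.7e-09). SQSTM1 (p62), the receptor that links ubiquitinated cargo to LC3, had levels of 6.56, 7.20, 6.91, 6.74 and 7.14 in F0 and of 5.16, 5.13, 5.49, 5.02 and 5.36 in RF4. It thus fell in a narrow band, by 1.68 (SE 0.20, adjusted p = 1.5e-06). ZFYVE1, found at the membrane sites where autophagosomes form, fell by 2.90, and PIK3R4, the regulatory subunit of the lipid kinase that starts autophagy, by 2.21. ATG2A, a lipid transfer protein of the growing autophagosome, was at least 3.99-fold lower, being well above background on all 5 F0 arrays and on 0 RF4 arrays. PSAP (-0.66, adjusted p = 0.154) and ATG4A (-0.48, adjusted p = 0.0514) were not called.

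Other proteases changed less evenly. Of 5 calpain and caspase genes, CAPNS1, the small subunit that calpains share, fell by 1.35 (adjusted p = 3.3e-06) and CASP9, the caspase that starts the mitochondrial pathway of cell death, by 1.09 (adjusted p = 2.6e-04), both without overlap; the 3 others are the array-named calpain genes above. Of the proteasome, only 2 named members were tested. ECM29, which holds the proteasome together with its cap, fell by 2.28 (adjusted p = 7.1e-05), and PSMA1 by the 0.78 given above, a call that median scaling of the arrays removed.

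**Figure D3:**
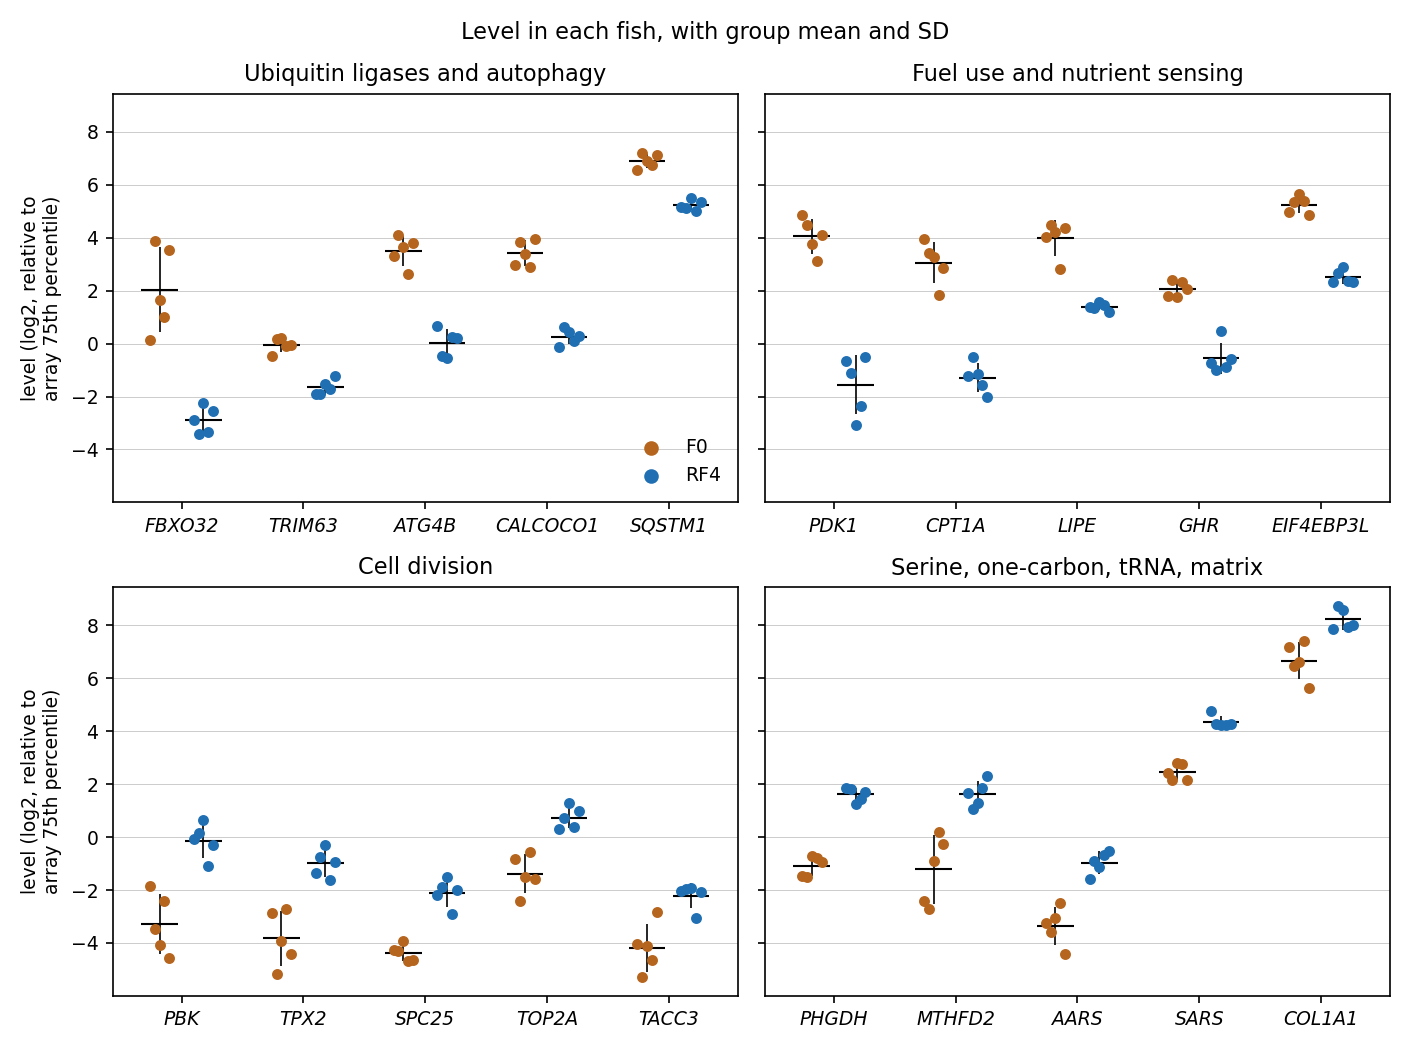
Level of 20 genes (log2, against the array's 75th percentile, y axis) in each F0 (brown) and RF4 (blue) trout, 1 point per fish, with the group mean as a horizontal bar and 1 SD as a vertical bar. The groups are apart for 19 genes and overlap for TACC3; TPX2, SPC25, TACC3 and AARS were well above background on 0 F0 arrays, so that their F0 points show signal near background.

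Named genes that set which fuel the muscle burns were mostly lower. Of 12 tested members, 10 were lower and 1 was higher, and the median difference was -1.85. The lower share was 9.98% over all probes and 56.7% over heat map probes, and 3 of the 10 were tested through F0 alone. PDK1, as the probe's best match is named, belongs to the kinases that shut off pyruvate dehydrogenase and so keep glucose carbon out of the mitochondria. Its levels were 4.85, 4.48, 3.76, 3.12 and 4.09 in F0 and -0.67, -1.12, -3.09, -2.36 and -0.50 in RF4. This is a 48.7-fold fall (difference -5.61, SE 0.50, limma adjusted p = 2.8e-08), of similar size on the 3 slides (-5.43, -5.41 and -6.16), with 3 of 5 RF4 arrays well above background (-4.56 with normexp correction). PDK2, a second kinase of this family, had levels of 0.53, -0.99, -0.10, -1.29 and -0.94 in F0 and fell by 3.30 (SE 0.44, adjusted p = 5.8e-06), with only 1 of 5 RF4 arrays well above background. Its difference lay between -3.69 and -1.57 over the alternatives, the smaller fall with normexp correction.

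CPT1A, which brings long-chain fatty acids into mitochondria, had levels of 3.94, 3.41, 3.29, 1.83 and 2.85 in F0 and of -1.22, -0.51, -1.13, -1.55 and -2.0 in RF4. The fall was 20.3-fold (difference -4.34, SE 0.56, adjusted p = 3.5e-06; -3.61 with normexp correction), and a second probe of the gene fell by 2.66. LIPE, hormone-sensitive lipase, which releases fatty acids from stored fat, had levels of 4.03, 4.49, 4.20, 2.82 and 4.37 in F0 and of 1.40, 1.33, 1.56, 1.45 and 1.21 in RF4. All RF4 fish lay within 0.4 log2 units of each other, and the gene fell by 2.59 (SE 0.24, adjusted p = 6.1e-08). Tyrosine aminotransferase (TAT), which degrades tyrosine and is a classical target of glucocorticoids in mammalian liver, had levels of 0.91, 2.67, 1.26, 0.63 and 0.68 in F0 and was well above background on 0 RF4 arrays. It was at least 14.9-fold lower in RF4 (adjusted p = 4.9e-10).

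The exceptions were PPARD, a relative of PPARA, which was not called (0.10, adjusted p = 0.855), and CROT, a peroxisomal carnitine acyltransferase. The brightest CROT probe was called higher (0.89, adjusted p = 0.0391), but the 2 other CROT probes were called lower, down to -2.43, and the call of the first was lost under 13 of 22 alternatives, among them without F0-2 (0.70, adjusted p = 0.116). Of 33 listed genes of glycolysis and linked steps, 6 were tested, too few to describe the pathway, and 1 was higher and 2 lower. Over all tested probes 23.9% were called, and over heat map probes 78.3%. PKM, the pyruvate kinase of muscle, rose by 0.76 (adjusted p = 0.00297). PHKA1, a subunit of the kinase that activates glycogen breakdown, fell by 1.76 (adjusted p = 3.5e-04). GPD1, which links glycolysis to glycerol, fell by 0.80 (adjusted p = 0.0207). GPD1 lost its call under 6 of 22 alternatives, among them without F0-4, F0-7 or RF4-3 (-0.72, -0.70 and -0.69), and its difference within the first slide was 0.17. The 3 probes named for triosephosphate isomerase were not called.

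Sterol metabolism was named by 5 tested genes, and all were called, 1 higher and 4 lower. Calls were made for 23.9% of all tested probes and 78.3% of heat map probes. FDPS, which makes farnesyl pyrophosphate on the way to cholesterol, had levels of 5.27, 5.48, 5.23, 4.66 and 5.37 in F0 and of 3.13, 2.97, 3.44, 2.95 and 2.46 in RF4. The groups did not overlap, and FDPS fell by 2.21 (SE 0.22, limma adjusted p = 1.0e-07). MBTPS2, the protease that releases the sterol-sensing transcription factor SREBP, fell by 1.54, and CYP46A1, which hydroxylates cholesterol for removal, by 2.79. SC5DL, which acts late in cholesterol synthesis, went the other way. Its levels were 2.68, 2.09, 2.59, 2.76 and 2.24 in F0 and 4.06, 4.13, 4.39, 4.12 and 3.89 in RF4, a rise of 1.64 (SE 0.19, adjusted p = 8.7e-07) with more than 1 log2 unit between the groups.

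Regulators that restrain growth when nutrients are short were lower in 15 of 18 tested members, with 0 higher and a median difference of -1.41. Among all probes 9.98% were lower, and among heat map probes 56.7%. EIF4EBP3L, a relative of the repressor 4E-BP that holds the cap-binding factor eIF4E inactive, had levels of 4.98, 5.36, 5.66, 5.38 and 4.85 in F0 and of 2.34, 2.67, 2.89, 2.37 and 2.31 in RF4. Spread within each group was about 0.3 (SD 0.33 and 0.25), and the fall was 2.73 (SE 0.20, limma adjusted p = 2.7e-09). DDIT4L, which in mammals inhibits mTOR, had levels of 3.26, 3.29, 3.59, 2.38 and 3.56 in F0 and of 0.47, 0.00, 0.05, 0.99 and 0.64 in RF4 and fell by 2.79 (SE 0.29, adjusted p = 2.8e-07). A second DDIT4L probe differed by -0.97 and was not called.

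SLC38A9, the lysosomal amino acid sensor that signals to mTOR, fell by 2.48 (adjusted p = 3.8e-07), and SOCS7, one of the suppressors of cytokine and insulin signalling, by 1.96 (adjusted p = 5.4e-05). The growth hormone receptor (GHR) had levels of 1.80, 2.41, 1.77, 2.31 and 2.05 in F0 and of -0.73, -1.01, 0.46, -0.88 and -0.60 in RF4. RF4-4 stood above its group, yet well below the lowest F0 fish, and GHR fell by 2.62 (SE 0.25, adjusted p = 7.9e-08). Not called were SOCS2 (-0.65, adjusted p = 0.185), ACVR1B (-0.25, adjusted p = 0.426) and TXNIP (-0.03, adjusted p = 0.962).

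Translation factors went both ways: 3 of 15 tested members were higher and 8 lower, with a median of -0.53. Both counts are near the shares of heat map probes, 21.7% higher and 56.7% lower. Over all tested probes these shares were 14.0% and 9.98%. EIF4E1A, the cap-binding factor that 4E-BP proteins restrain, had levels of -1.05, -1.47, -0.72, -0.19 and -0.52 in F0 and of 1.27, 1.27, 1.52, 1.43 and 1.20 in RF4. The RF4 fish were almost alike, at more than 1 log2 unit above the highest F0 fish, and the rise was 2.13 (SE 0.20, limma adjusted p = 5.0e-08). EIF1B, which helps to find the start codon, rose by 1.03 (adjusted p = 0.00159), and EIF2S2, a subunit of the factor that brings the initiator tRNA, by 0.64 (adjusted p = 0.0041). EIF4A2, one of the helicases that open the messenger RNA, had levels of 3.29, 3.37, 3.29, 3.31 and 3.32 in F0 and of 1.05, 0.77, 0.82, 0.52 and 1.30 in RF4, a fall of 2.42 (SE 0.19, adjusted p = 5.8e-09). EIF4E3, a relative of eIF4E, fell by 2.11, the elongation factor subunit EEF1G by 2.04 and EIF2B2, part of the exchange factor that recharges eIF2, by 1.76. EIF3D, a subunit of the largest initiation factor, differed by -0.04 (adjusted p = 0.878).

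Both aminoacyl-tRNA synthetases with a named probe, enzymes that load amino acids onto their tRNAs, were higher. The share of higher probes was 14.0% over all tested probes and 21.7% over heat map probes. SARS (serine) had levels of 2.44, 2.17, 2.81, 2.77 and 2.16 in F0 and of 4.75, 4.26, 4.22, 4.22 and 4.28 in RF4, a rise of 1.88 (SE 0.26, limma adjusted p = 8.7e-06). AARS (alanine) was well above background on 0 F0 arrays and on all 5 RF4 arrays, at levels between -1.60 and -0.51, which made it at least 3.28-fold higher (adjusted p = 7.5e-05). PHGDH, the first enzyme of serine synthesis, had levels of -1.46, -1.51, -0.70, -0.79 and -0.93 in F0 and of 1.85, 1.82, 1.27, 1.43 and 1.72 in RF4. The groups were about 2 log2 units apart at their nearest fish, and the rise was 2.70 (SE 0.41, adjusted p = 3.0e-05). MTHFD2, the mitochondrial folate enzyme that passes on the carbon unit taken from serine, had levels of -2.40, -2.73, -0.92, 0.21 and -0.26 in F0 and of 1.68, 1.05, 1.30, 1.84 and 2.32 in RF4. F0 fish varied by almost 3 log2 units, the groups did not overlap, and the rise was 2.86 (SE 0.47, adjusted p = 6.9e-05; 2.07 with normexp correction).

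Ribosomal proteins with a named probe were lower in 9 of 13 cases, higher in 0, with a median of -1.19. They belong to the named probes that the order of the heat map selects for a fall (56.7% lower, against 9.98% of all tested probes). RPL12 had levels of 4.38, 5.42, 4.75, 4.47 and 5.20 in F0 and of 1.93, 1.74, 0.87, 0.96 and 1.29 in RF4, a fall of 3.49 (SE 0.27, limma adjusted p = 3.6e-09). RPS13 fell by 2.40 and a second probe of it by 3.80. RPSA showed how much this depends on the probe: its brightest probe fell by 2.20 (adjusted p = 1.3e-07), while its 2 other probes were not called. RPLP0 fell by 2.70 (adjusted p = 7.0e-05), RPS15 by 1.93, with only 1 of 5 RF4 arrays well above background, and RPL23 by 1.84. The 4 ribosomal proteins not called ranged from -0.66 (RPS18, adjusted p = 0.145) to 0.59 (RPL35, adjusted p = 0.179), but both other probes of RPL10A (down to -2.77) and a second probe of RPS18 (-1.64) were called lower.

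Of the genes that make ribosomes, 13 of 114 listed had a named probe. Of these, 4 were lower and 0 higher, and the median was -0.24. The lower share was 9.98% over all tested probes and 56.7% over heat map probes, which 4 of 13 does not reach. NHP2L1, which binds box C/D RNAs, fell by 1.38 (adjusted p = 4.0e-05), RBM19 by 0.98 and PNO1, an assembly factor of the small subunit, by 0.79, while RCL1 fell by 0.74 but lost its call under 3 of 22 alternatives. All 4 tested members of the transcription machinery for ribosomal and transfer RNA were lower, against the same 2 shares. POLR3GL, tested through F0 alone, fell by 2.65 (3 of 5 RF4 arrays well above background) and TWISTNB by 2.09. RRN3, the factor that recruits RNA polymerase I, fell by 1.74, and POLR1D by 1.22. RRN3 had levels of 0.88, 1.45, 1.20, 1.02 and 1.57 in F0 and of -0.96, -0.64, -0.63, -0.22 and -0.15 in RF4, without overlap (SE 0.21, limma adjusted p = 1.2e-06).

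Of 6 tested genes of nucleotide synthesis, 3 were lower and 2 higher. The lower share was 9.98% over all tested probes and 56.7% over heat map probes, the higher share 14.0% and 21.7%. CAD, CTPS and UMPS, which make pyrimidines, fell by 1.86 (adjusted p = 4.8e-05), 1.29 (adjusted p = 1.9e-05) and 1.02 (adjusted p = 2.7e-04), all without overlap. Thymidine kinase TK1, which supplies thymidine for DNA synthesis, rose by 0.90 (adjusted p = 0.00726), and MTHFD2 rose as described, while PPAT, the first step of purine synthesis, was not called (-0.12, adjusted p = 0.700).

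Chaperones of the cytosol were lower in 5 of 7 members and higher in 1. Of all tested probes 9.98% were lower, and of heat map probes 56.7%. HSP90AA1 had levels between 5.57 and 6.01 in F0 and between 3.94 and 4.26 in RF4 and fell by 1.72 (SE 0.16, limma adjusted p = 5.5e-08). HSP90AB1 fell by 1.55, and the probes named HSP83 and HSP90AB3P, names of the same HSP90 family in other species, by 1.77 and 1.38, so that these 4 may not be 4 separate trout genes. DNAJC12, a co-chaperone, fell by 0.99, and TCP1, a subunit of the chaperonin that folds actin and tubulin, rose by 0.44 (adjusted p = 0.0286), a call lost under 11 of 22 alternatives. In the endoplasmic reticulum, RPN2, which attaches sugar chains to secreted proteins, rose by 0.44 (adjusted p = 0.0256), lost under 7 of 22 alternatives, and DNAJB9 was not called (0.73, adjusted p = 0.108).

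Of the mitochondrial genes, 0 of 5 were called for mitochondrial translation, 1 of 4 for the respiratory chain and 3 of 7 for protein import and quality control. Over all tested probes 23.9% were called, and over heat map probes 78.3%. TOMM5, a small subunit of the import channel of the outer membrane, had levels of 1.46, 1.33, 1.27, 1.30 and 1.45 in F0 and of 2.40, 2.78, 2.65, 2.61 and 2.35 in RF4. All RF4 fish lay above all F0 fish, and the rise was 1.19 (SE 0.15, limma adjusted p = 3.5e-06). TIMM22, of the inner membrane channel, fell by 1.56 (adjusted p = 2.1e-05), CLPB, a disaggregase, by 1.55 (adjusted p = 1.0e-04), and UQCR10, a subunit of complex III, by 1.39 (adjusted p = 0.00208), the last with overlapping groups. COX5B, a subunit of complex IV, differed by 0.40 (adjusted p = 0.0641).

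**Figure D4:**
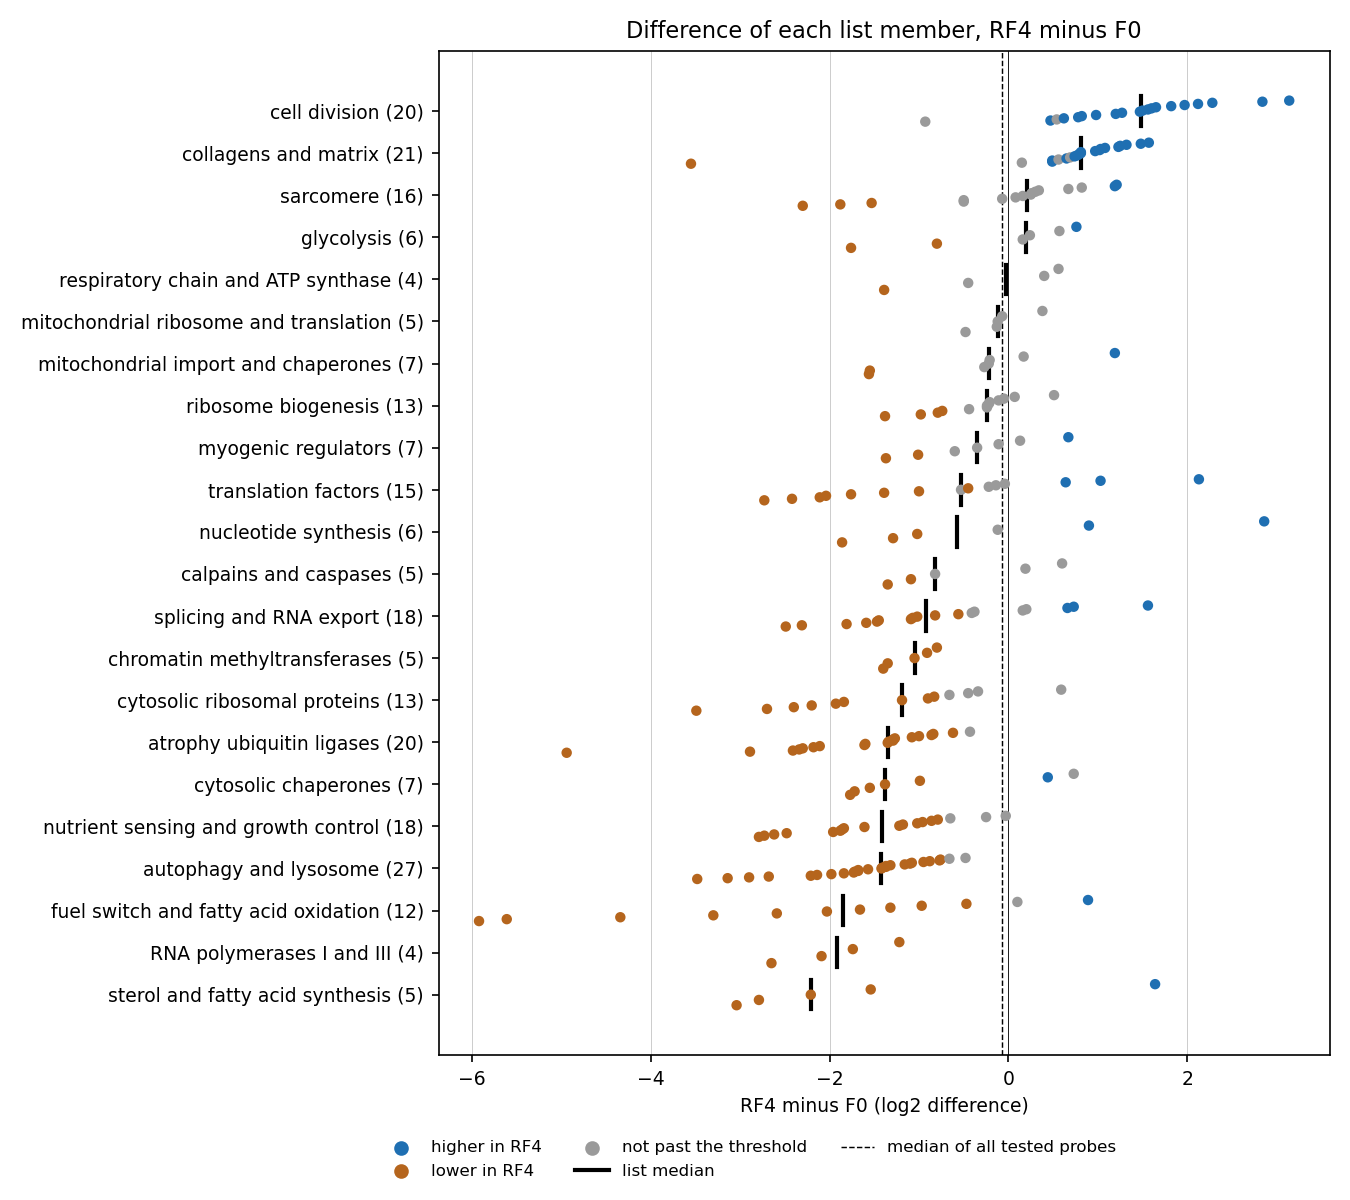
Difference RF4 minus F0 (x axis, log2) of each member of the gene lists with at least 4 tested members (y axis, number of tested members in parentheses), with the list median as a black bar and the median of all tested probes (-0.07) as a dashed line. Blue and brown points were called higher and lower; the medians run from -2.21 for sterol metabolism to 1.48 for cell division, and members that were near background on all arrays of 1 group are drawn at their fitted difference, which is approximate.

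Of 62 listed genes of cell division, 20 were tested, 18 of them higher after 4 days of refeeding and 0 lower, with a median of 1.48, or of 1.09 when the 4 members that were not well above background in F0 are set at their bound. The share of higher probes was 14.0% over all probes and 21.7% over those named from the heat map. For 10 of the 18 (CDC2, KIF20A, KIF2C, KPNA2, PBK, SMC2, SPC25, STMN1, TACC3 and TPX2), fewer than 4 F0 arrays were well above background, so that they were tested through RF4 alone and the count describes them without supporting a rise. PBK, a mitotic kinase, had levels of -1.85, -3.47, -4.07, -2.40 and -4.57 in F0, where 1 of 5 arrays was well above background, and of -0.07, 0.17, 0.64, -1.10 and -0.30 in RF4, where all 5 were. It rose by 3.14 (SE 0.37, limma adjusted p = 1.4e-06) and by 1.63 with normexp correction, the smallest value over the alternatives. TOP2A, the topoisomerase that untangles chromosomes, had levels of -0.81, -2.42, -1.51, -0.57 and -1.59 in F0 and of 0.32, 0.73, 1.28, 0.37 and 0.97 in RF4, a rise of 2.12 (SE 0.28, adjusted p = 5.8e-06; 1.40 with normexp correction), and its 4 probes ranged from 0.60 to 2.99.

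TPX2, which nucleates spindle microtubules, SPC25, a kinetochore subunit, and TACC3, which stabilises spindle fibres, were each well above background on 0 F0 arrays. They were at least 3.12-fold, 1.5-fold and 1.38-fold higher in RF4 (adjusted p = 2.2e-06, 4.7e-07 and 2.5e-04), on 5, 4 and 4 well measured RF4 arrays. KPNA2, an import receptor of the nucleus that is abundant in dividing cells, rose by 1.56 (adjusted p = 1.5e-04), with 3 of 5 F0 arrays well above background. NCAPG (0.54, adjusted p = 0.0544) and CDC45L (-0.93, adjusted p = 0.0932) were not called. When every one of the 10 arrays had to be well above background, 9 members could be tested and 8 were called, all higher. NCAPG is among these 8, although it missed the threshold over all tested probes. Of the 26185 probes under this filter, 6643 were called, 3769 of them higher. INCENP-A, a chromosomal passenger protein, rose by 2.74 (SE 0.38, adjusted p = 8.8e-06; 1.54 with normexp correction), with 3 of 5 F0 arrays well above background. CKAP2, a spindle protein, was at least 2.36-fold higher (adjusted p = 6.5e-06).

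Collagens and other matrix genes were higher in 17 of 21 tested members and lower in 1, with a median of 0.81. Higher calls made up 14.0% of all tested probes and 21.7% of heat map probes. COL1A1, the main chain of type I collagen, had levels of 7.18, 6.46, 6.62, 7.43 and 5.63 in F0 and of 7.85, 8.75, 8.60, 7.95 and 8.01 in RF4. The lowest RF4 fish lay 0.4 above the highest F0 fish, and COL1A1 rose by 1.57 (SE 0.30, limma adjusted p = 4.2e-04), with its 13 probes between 1.23 and 2.52. COL1A2, its partner chain, rose by 1.48 (adjusted p = 6.4e-04), although F0-5 at 6.06 reached above RF4-2 at 6.01. LOXL2, which cross-links collagen, rose by 1.32, COL15A1, of basement membranes, by 1.25, and COL12A1, which decorates collagen fibrils, by 1.23. Both chains of type I collagen differed by less on the first slide (0.75 and 0.70) than on the second (2.70 and 2.57). With F0-2 the only F0 fish on the first and RF4-3 the only RF4 fish on the second, slide and fish cannot be told apart.

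CTGF, a secreted matrix regulator, went the opposite way. Its levels were -0.04, 1.97, 2.74, 1.60 and 2.65 in F0 and -2.79, -1.90, -1.27, -1.09 and -1.76 in RF4, a fall of 3.55 (SE 0.45, adjusted p = 3.1e-06; -2.57 with normexp correction). KERA (keratocan) rose by 0.49 (adjusted p = 0.0371), a call lost under 13 of 22 alternatives, and POSTN (0.56, adjusted p = 0.137) and OGN (0.15, adjusted p = 0.573) were not called, although a second OGN probe rose by 1.05.

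Of 16 tested sarcomere genes, 2 were higher and 3 lower, and the median was 0.20. The called share of 31.25% compares with 23.9% of all tested probes and 78.3% of heat map probes. TPM1, a tropomyosin of the thin filament, had levels of -0.26, -0.47, -0.29, 0.09 and -0.78 in F0 and of 0.87, 0.93, 0.79, 0.98 and 0.79 in RF4. The RF4 fish lay within 0.2 of each other, and TPM1 rose by 1.21 (SE 0.21, limma adjusted p = 1.7e-04). MYOM2, which ties myosin filaments together at the M-band, rose by 1.19 (adjusted p = 0.00232). MYOZ1, a Z-disc protein that binds calcineurin, fell by 2.30 (adjusted p = 2.3e-05), CAV3, the muscle caveolin of the cell membrane, by 1.88 (adjusted p = 7.9e-08), and XIRP2, an actin-binding repair protein, by 1.53 (adjusted p = 6.9e-05), all without overlap. Among myogenic regulators outside the array-named set, HES6, a Notch pathway factor that promotes differentiation, rose by 0.67 (adjusted p = 0.00273).

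Cell type markers moved with some of these groups. All tested markers carry heat map names. Of heat map probes 21.7% were called higher and 56.7% lower, against 14.0% and 9.98% of all tested probes. The endothelial falls below, 2 of 3, are near the heat map share. For fast fibres, the tissue that the Methods of the study give, 5 of 18 listed markers were tested and 1 was called, TPM1. Their summed signal (in multiples of the array's 75th percentile) was 855 to 1180 in F0 and 1030 to 1670 in RF4. TPM1, a dim probe beside the others, adds little to this sum. The slow fibre marker MYOZ2, the only 1 of 12 tested, had a signal of 1.25 to 3.36 in F0 and 1.87 to 3.07 in RF4 and was not called. Of the fibroblast markers, COL1A1, COL1A2 and DCN were called higher and POSTN was not, and the summed signal of these 4 was 73.3 to 246 in F0 and 302 to 577 in RF4. One of the other DCN probes was called lower (-2.94). This list overlaps the matrix genes above, and the part of a changed number of fibroblasts in their rise was not tested. Endothelial markers CLDN5 (-1.10, limma adjusted p = 4.5e-04) and CLEC14A (-0.86, adjusted p = 0.00925; call lost under 1 of 22 alternatives) fell and KDR was not called (-0.56, adjusted p = 0.164), with a summed signal of 2.33 to 3.11 in F0 and 1.38 to 2.11 in RF4. Of 11 adipocyte markers only LIPE was tested, so that fat cells cannot be told apart from fibres as the source of its fall. For red blood cells and skin 0 markers had a named probe, and of the leukocyte markers only CYBB had one, which was too dim to be tested.

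Regulators of chromatin and of RNA processing were mostly lower among the named genes. The lower share was 9.98% over all tested probes and 56.7% over heat map probes, and the higher share 14.0% and 21.7%. All 5 tested histone-modifying enzymes fell: EZH1 by 1.40, KDM4A by 1.35 (1 of 5 RF4 arrays well above background), SETD8A by 1.05, EHMT1 by 0.91 and SETDB1 by 0.80, of which KDM4A removes methyl groups and the others add them. EZH1 had levels of 1.42, 1.81, 1.57, 1.14 and 1.55 in F0 and of -0.24, -0.12, 0.32, 0.26 and 0.25 in RF4 (SE 0.16, limma adjusted p = 6.3e-07). Of 18 splicing and RNA export genes, 11 were lower and 3 higher, with a median of -0.92, or -0.69 with its 2 members at a bound. The lower count is near the share of heat map probes. Of the 11, 3 were tested through F0 alone, and of the 3 higher genes, 1 through RF4 alone. NCBP1, the nuclear cap-binding protein, fell by 2.49, CLK4, a kinase of splicing factors, by 2.31, and the nuclear pore proteins NUP98 and NUP155 by 1.81 and 1.59. For NUP98, only 2 of 5 RF4 arrays were well above background, and its fall was 0.96 with normexp correction. HNRNPA1 and LSM4 rose by 0.73 (adjusted p = 0.00104) and 0.66 (adjusted p = 0.00492). NFIL3, a clock-linked repressor, and MAP3K5 (ASK1), a stress kinase, fell by 1.36 (adjusted p = 1.0e-04) and 1.21 (adjusted p = 4.3e-05).

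Further genes that the rule named belong to none of these groups. TOP1, the topoisomerase that relaxes DNA during transcription, was at least 10.7-fold lower (adjusted p = 2.8e-08), and TMPRSS5, a membrane serine protease, at least 6.07-fold lower (adjusted p = 2.2e-07), each well above background on all F0 arrays and on 0 RF4 arrays. ENG2B, named for the homeobox factor engrailed 2b, which in zebrafish marks a set of muscle fibres and their pioneers, had levels of 2.85, 3.46, 2.89, 2.58 and 2.97 in F0 and of 0.21, -0.03, -0.62, -0.46 and -0.84 in RF4. More than 2 log2 units separated the groups, and the fall was 3.30 (SE 0.27, limma adjusted p = 1.2e-08), of nearly the same size on each slide (-3.17, -3.24 and -3.28).

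OLFML2B, an olfactomedin-like secreted protein, had levels of -4.06, -4.48, -4.03, -1.73 and -4.50 in F0, where 1 of 5 arrays was well above background, and of -0.28, -0.05, -0.94, -0.62 and -0.96 in RF4, a rise of 3.19 (SE 0.47, adjusted p = 1.9e-05). Over the alternatives it lay between 1.31, with normexp correction, and 3.70, without F0-5. PRSS35, an inactive protease, rose by 2.52 (SE 0.59, adjusted p = 0.00248; 1.38 with normexp correction), with 2 of 5 F0 arrays well above background. Its difference was 0.11 on the first slide (F0-2 the only F0 fish) and 4.26 on the second (RF4-3 the only RF4 fish). The chemokine probe CXCL9 was at least 1.69-fold higher (adjusted p = 1.3e-05).

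Levels in the later groups put the first 4 days in context, as a description and with no test. PDK1 stood at 4.06 ± 0.67 (SD, n = 5) in F0, -1.55 ± 1.13 in RF4, -1.46 ± 1.03 in RF11 (n = 5), -1.72 ± 0.69 in RF36 (n = 4) and 2.75 ± 0.48 in C0 (n = 4). It was thus low at every refed time point and high in both the fasted and the control-fed trout, whose means lay more than 4 log2 units above RF4. CPT1A was low at RF4 (-1.28 ± 0.55) and RF11 (-2.21 ± 1.23) as well, but stood at 0.01 ± 1.08 in RF36 and 2.30 ± 1.07 in C0. ENG2B stood at -0.35 ± 0.43 in RF4, -0.99 ± 0.40 in RF11 and 2.10 ± 0.43 in RF36, the last near its 2.31 ± 0.66 in C0. FBXO32 was near background in all refed groups, well above it on 2 of 5 RF4, 1 of 5 RF11 and 0 of 4 RF36 arrays, so that the order of its later levels cannot be read.

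Among genes that were higher at RF4, EIF4E1A stood at 1.34 ± 0.13 in RF4, 2.28 ± 0.22 in RF11 and 2.89 ± 0.07 in RF36, with 1.88 ± 0.34 in C0. COL1A1 stood at 8.23 ± 0.41 in RF4, 8.31 ± 0.41 in RF11, 9.21 ± 0.36 in RF36 and 9.09 ± 0.51 in C0. PBK stood at -0.13 ± 0.64 in RF4, 0.97 ± 0.13 in RF11, 0.51 ± 0.27 in RF36 and 0.73 ± 0.19 in C0. PHGDH stood at 1.62 ± 0.26 in RF4, 0.91 ± 0.52 in RF11, 2.73 ± 0.85 in RF36 and 1.86 ± 1.25 in C0.

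**Figure D5:**
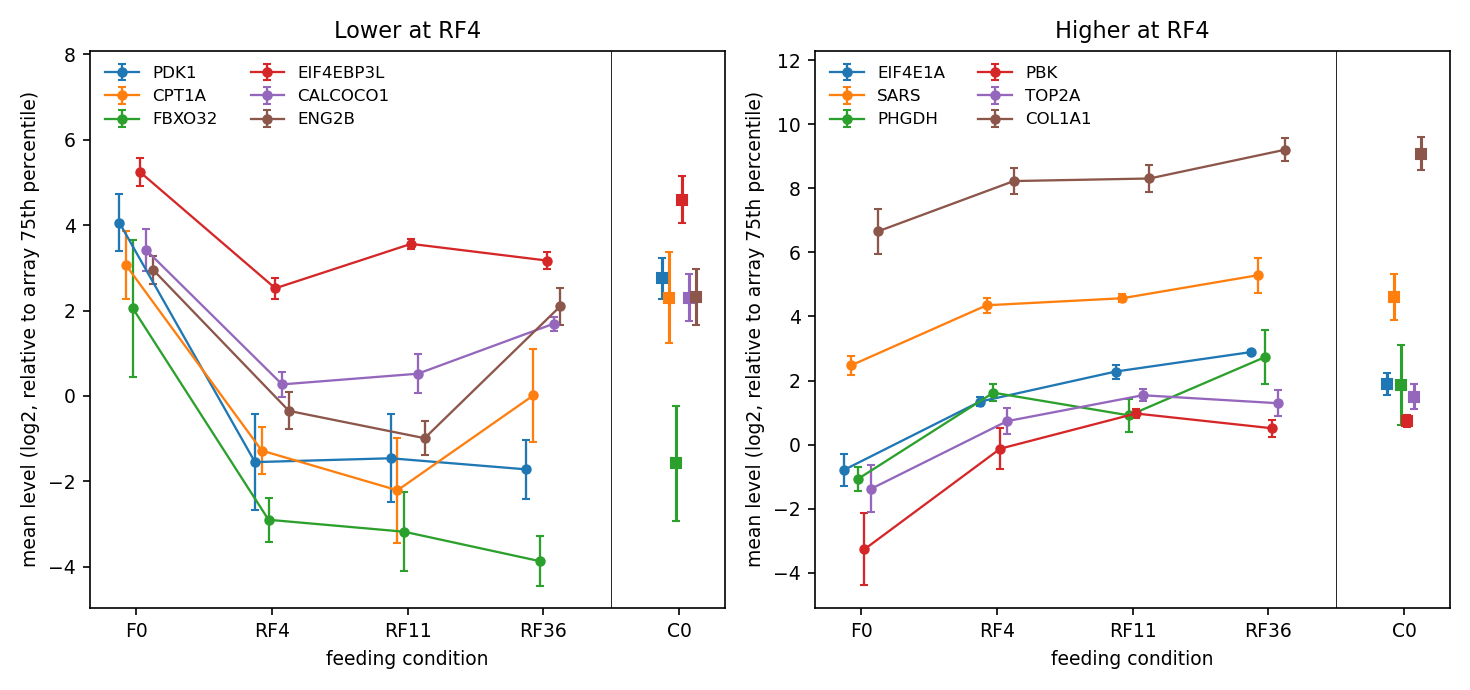
Mean level (log2, against the array's 75th percentile, y axis) with 1 SD as a bar in F0, RF4, RF11, RF36 (lines; different fish at each point) and in control-fed trout C0 (squares, a separate tank), for 6 genes called lower (left) and 6 called higher (right) at RF4. The left lines drop between F0 and RF4 and then part, with ENG2B at 2.10 in RF36, while the FBXO32 points of RF11 and RF36 show signal near background; the right lines are higher at RF4 than at F0 for all 6 genes.

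Where a gene had several tested probes, these mostly moved together: for 112 of 124 called genes with more than 1 probe, all other probes were called the same way. Probes called in opposite directions were found for 3 genes, CROT, DCN and LITAF, which are named because their probes disagreed. Of the 153 genes named by the rule or by the array, 125 were called, 37 higher and 88 lower. The rule takes most of its genes because they were called, so this share is set by the choice. Over all tested probes 23.9% were called. Of the 125, 124 had a difference of 1 sign within all 3 slides, the exception being GPD1. This agreement rests on the arrays that gave the calls and is no separate support for them.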

How the data were processed

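Cy3-labelled RNA was hybridised to 1-colour arrays, and the deposited intensity is the processed signal that the authors obtained with Agilent Feature Extraction 10.7.3.1, after background subtraction and before any scaling between arrays. The spot median intensity and its local background, also deposited, served the normexp alternative only (offset 50). The authors' deposited table of log2 values, scale-normalised in GeneSpring, tracks the scanner log2 signal with a slope of 1.0 and a shift per array, with each column's median at 6.0926, and was used as an alternative.

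Control spots and 145 outlier spots were left out, spots of a probe were averaged, and the 75th percentile of each array's remaining probes was taken off its log2 values. Probes missing on an array (137, of which 67 were bright enough to be tested) were left out. A model of 1 mean per group on all 23 arrays (lmFit and eBayes of limma 3.58.1, under R 4.3.3) was tested on simulated data first. Tests are two-sided, with Benjamini-Hochberg adjustment. Figures were drawn with matplotlib 3.10.9 and tables made with pandas 2.3.3, scipy 1.17.1 and numpy 2.4.6 under Python 3.11.15. The number of arrays limits the precision, and 0 spots were saturated.

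Each gene is given by its brightest tested probe, by the mean over the 23 arrays. Named genes are, in each of the 26 gene lists, up to 5 called members with the largest rise and up to 5 with the largest fall, members that the Results of the study name, members without overlap in lists of under 5 tested genes, the 10 largest named rises and falls without overlap, and array-named genes, which were added after their values were seen. The gene lists, the 8 marker lists and the genes were chosen with earlier results of these data known. Of 7 RefSeq accessions among the probe names, 4 matched a symbol. Alternatives were other scalings, background corrections, filters, models, tests and thresholds, blocks by sample number or slide, and each array left out in turn. A few genes are not reported here.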

Additional observations from a re-analysis of the deposited data

Results flagged for a closer look

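Within each group of 5 fish, a gene was set aside where the gap between the most extreme fish and its nearest neighbour exceeded 0.71 of the group's range (Dixon's 95% limit). This was met 25 times in 306 groups, 14 times in F0 and 11 times in RF4, where chance gives about 1 in 20, and each instance is given as a value with no explanation.

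In F0, trout 5 stood low for CLK4 (1.74, others from 2.67), CYP46A1 (1.80, others from 2.26), DDIT4L (2.38, others from 3.26), LIPE (2.82, others from 4.03) and RNF122 (1.08, others from 1.58), and high for OLFML2B (-1.73, others up to -4.03). All 6 genes kept their call without this array, with differences between -2.99 for DDIT4L and 3.70 for OLFML2B. Trout 7 stood high for CAD (4.74, others up to 3.74), RPLP0 (3.36, others up to 1.99), UMPS (2.33, others up to 1.83) and COX5B (-1.25, others up to -1.38), and low for DCN (1.40, others from 2.06) and POSTN (-0.45, others from 0.67). Without it RPLP0 still fell by 2.38 (limma adjusted p = 2.94e-04), DCN rose by 0.65 (adjusted p = 0.0418), and POSTN and COX5B remained uncalled. Trout 2 stood low for CROT (1.76, others from 2.63), whose call was lost without it (0.70, adjusted p = 0.116), and for SCX (-0.38, others from 0.03).

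In RF4, trout 4 stood low for CLPB (-1.58, others from -0.96) and PIK3R4 (-0.38, others from 0.57) and high for GHR (0.46, others up to -0.60) and LSM4 (2.78, others up to 2.14). Trout 3 stood high for PA2G4 (2.44, others up to 1.33) and SLC38A9 (-1.03, others up to -1.61) and low for MYF6 (-0.72, others from 0.09). Trout 2 was low for CROT (2.12, others from 3.62) and high for SARS (4.75, others up to 4.28). Trout 5 was low for TACC3 (-3.07, others from -2.07) and trout 7 for ATG2A (-4.17, others from -3.28), a gene not well above background on any RF4 array. The genes of this paragraph that were called kept the call without the fish in question, and MYF6 and PA2G4 remained uncalled.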

How the results depend on the processing

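The number of called probes (7968) stayed within 1.5 times its value under 22 of 24 alternatives, between 6030 with each array scaled to its median and 9181 with the replicate block, and at 7593 with the one-way test that the methods name. It fell to 5130 (3275 higher and 1855 lower) at an adjusted p under 0.01 and to 3927 (2523 higher and 1404 lower) with a minimum of 1 log2 unit, since both are stricter by construction. With each array left out in turn it lay between 6652 (without RF4-3) and 8103 (without RF4-2). The 191 called list members (of 260) became 166 to 202, and 181 to 195 with an array left out.

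Sample numbers were not taken to pair the fish, since the Methods describe no pairing of fish between time points. The correlations between the deviations of same-numbered arrays were 0.334, 0.154, -0.082, 0.102 and 0.255. All but the last of these pairs also shared a slide, so that number and slide cannot be told apart there. With the number as a replicate block in a model of the 10 F0 and RF4 arrays 9181 probes were called, against 8352 in that model without the block. Without the control array C0-1, which matched no column of the heat map, 8830 were called. Scaling moved the median of all probes by under 0.1.

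Of the 125 called genes named by the rule or the array, 115 were called under every alternative that could test them, and 10 lost the call under at least 1 (ATG12, CLEC14A, CROT, GPD1, KERA, PPARA, PSMA1, RCL1, RPN2 and TCP1). Of the 28 others, 9 gained it under at least 1 (CAST, COX5B, CYP1A3, DNAJB9, GPX1, LOC100136786, MSS1, MYOD1 and POSTN). None changed sign while called. The rule prefers the largest differences of each list, so these counts do not describe called probes at large. With an array left out, 120 to 126 named genes were called, and 6 genes lost the call. CROT lost it without F0-2, F0-3, F0-4, F0-7, RF4-3, RF4-4, RF4-5 or RF4-7 (0.70 to 0.93) and KERA without any of the same 8 arrays (0.43 to 0.51). PPARA lost it without any F0 array but F0-7 and without RF4-3, RF4-4 or RF4-5 (-0.49 to -0.39). RPN2 lost it without F0-2, F0-3, F0-7, RF4-5 or RF4-7 (0.38 to 0.43), TCP1 without F0-3, F0-4, F0-5, RF4-2 or RF4-7 (0.37 to 0.43), and GPD1 as given above.

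With normexp background correction, 32 of the 125 called genes had a fold smaller by over 1.5 times, 7 of them with all 10 arrays well above background. Beside those given above, the largest moves were those of TAT (-3.07), TOP1 (-2.27), TPX2 (1.06), SPC25 (0.57), CKAP2 (0.70), CXCL9 (0.73), TMPRSS5 (-1.68) and FBXO30 (-0.79). All of these were near background in 1 group and are given as bounds. Each of these bounds exceeds the fold with normexp correction, so that it is no lower limit under that correction.

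Among the lists, the fuel group had 7 called members instead of 11 with the strict filter that needs all 10 arrays well above background, and the respiratory chain had 2 called members instead of 1 under 8 settings, among them without RF4-5 or RF4-7. The endoplasmic reticulum group had between 0 and 2, with 0 whenever RPN2 lost its call.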

Other observations

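Of the 168 called probes that differed by at least 3 log2 units, 29 had a gene symbol. The probe TC126095 had levels of 4.09, 7.39, 5.94, 5.12 and 7.34 in F0 and of 0.09, -1.64, -0.91, -1.70 and -0.94 in RF4, a difference of -6.99 (SE 0.62), and TC121545 differed by -4.16 (SE 0.33). In the other direction, TC115295 rose from levels between 0.89 and 2.96 in F0 to levels between 6.49 and 7.22 in RF4 (difference 5.00, SE 0.37), and TC103715 by 4.41 (SE 0.23), without overlap of the groups for any of the 4 probes. All 4 were chosen after their values were seen.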
